A study of Mus musculus with 33 samples.

Results

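Microglia of the corpus callosum (CC), the white matter tract that joins the cerebral hemispheres, were compared between postnatal day (P) 42 and P10. The 8 RNA-seq libraries of this comparison were chosen by region and age alone, 4 at P42 and 4 at P10, from 33 libraries of microglia of the CC, cerebral cortex (Cx) and cerebellum (Cb) at P7, P10 and P42. In each group, replicates 1 and 2 came from female and replicates 3 and 4 from male mice. All mice were untreated and on the C57BL6 background, and the cells were sorted by FACS (fluorescence activated cell sorting) from perfused brains as CD45+, CD11b+ and Gr1- cells. The gate is shared by all macrophages of the brain, so that border macrophages of the meninges and vessels can enter it. Both Cx3cr1 GFP/WT and wildtype animals were bred for the study, and which of them gave each library, and whether a library held 1 animal or several, is not given in the sources used here. P-values therefore measure spread between libraries, with an estimate of that spread shared by all 33 of them. The change in the CC was set beside that in the Cx and Cb at the same ages (4 libraries in each group), and the 3 CC libraries of P7 (2 male and 1 female) are given for reference.

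Microglia are the resident macrophages of the brain. After birth they multiply, and in the developing white matter they clear dying cells and debris, handle the lipid this brings and release growth factors for the cells that make myelin. In the adult they divide slowly and hold a surveying state, which depends on TGF-beta and on transcription factors such as SALL1.

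The CC libraries held between 31762604 and 34651972 reads counted on genes at P10 and between 22761090 and 31049363 at P42. Levels are given as CPM (read counts brought to a common library total, with TMM factors), and between 10600 and 11558 genes reached 1 CPM in a library. Pearson's r of log2 CPM between libraries was 0.815 to 0.929 within P10, 0.798 to 0.895 within P42 and 0.690 to 0.813 between the ages. The 8 genes of the microglia marker list, among them P2ry12 and Tmem119, summed to 44414 to 52948 CPM at P10 and 53394 to 64436 CPM at P42. Xist and most Y-linked genes measured went with the labelled sex in all 8, but Kdm5d was at 0 in the male P10 replicate 3, where Xist was at 5.54 CPM against 0.173 CPM or less in the other males, and at 1.14 CPM in the female P10 replicate 2.

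Between P42 and P10, 1043 of 20917 genes were called changed, at an adjusted p of 0.01 or less (edgeR's quasi-likelihood test with Benjamini-Hochberg adjustment) and a log2 fold change of at least 1 in size. Of these, 393 were higher at P42 (1.88% of the genes tested) and 650 were lower (3.11%). The decreases were the larger ones, with a median size of 2.65 on the log2 scale against 1.47 for the increases, and 377 of the 650 and 120 of the 393 passed 4-fold. In 848 of the 1043 the 4 libraries of one age did not overlap those of the other. Over all genes tested, 1082 were higher without overlap (5.17%) and 1591 lower without overlap (7.61%). The median log2 fold change over all genes was -0.01. The test shares its estimate of spread over all 33 libraries, and 290 genes were called when only the 8 CC libraries were fitted. Where a level falls in sorted bulk RNA, fewer cells that hold a transcript and less of it in each cell cannot be told apart.

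**Figure D1:**
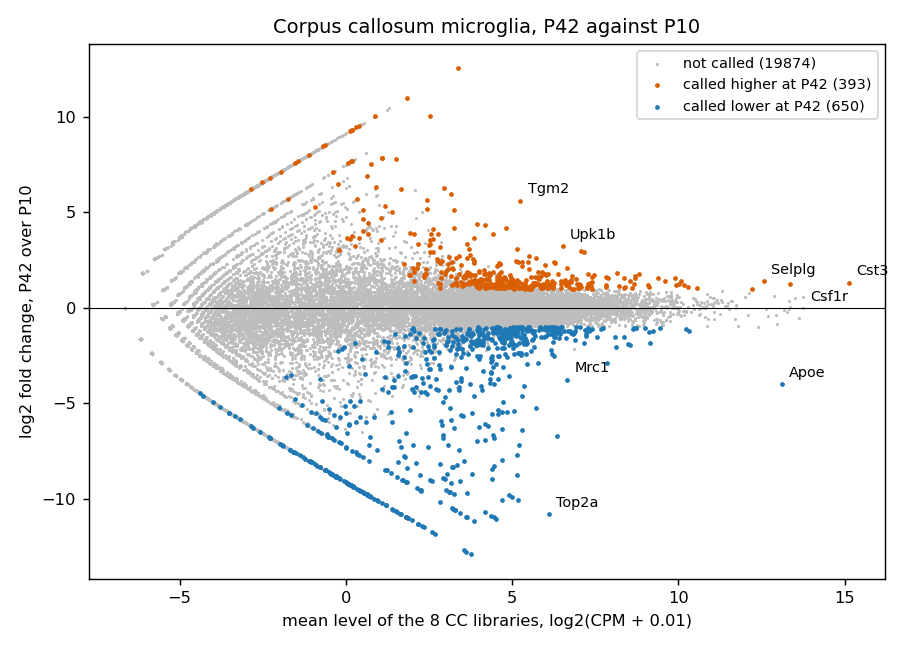
Log2 fold change between P42 and P10 in the CC (vertical axis) against the mean level over the 8 libraries in log2 CPM (horizontal axis), 1 point for each of the 20917 genes tested. Orange and blue points are the 393 genes called higher and the 650 called lower at P42, and the named points include Apoe at -4.00 and Cst3 at 1.32.

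Cell division. Most genes of mitosis and cytokinesis were close to absent at P42. Of 48 listed genes, 46 were lower at P42 and 0 were higher, against 3.11% and 1.88% of all genes, and none of the 46 overlapped between the ages. The summed level of the list was 1707 to 2345 CPM at P10 and 161 to 250 CPM at P42. Its median log2 fold change was -8.13, or -7.26 when 16 genes at the detection limit at an age were set to the bound that 3 counts per library give. Knstrn, which helps to hold kinetochores to the spindle, was at 15.2, 29.6, 26.7 and 37.4 CPM in the P10 libraries and at 0 in all 4 of P42, at least 245-fold lower. Cep55, needed for the last cut between daughter cells, was at least 221-fold lower, and the kinetochore gene Spc24 at least 209-fold lower.

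Top2a, the topoisomerase that untangles chromosomes, was at 94.9, 138, 207 and 115 CPM at P10 and at 0.0717, 0.229, 0.0330 and 0 CPM at P42 (fitted log2 fold change -10.81 ± 0.82, SE). Its lowest P10 library was thus far above every P42 library. Cdk1, the kinase that drives entry into mitosis, was at 104, 76.1, 86.0 and 144 CPM at P10 and at 1.29, 4.76, 5.06 and 0 CPM at P42 (-5.22 ± 0.55). Birc5 (-10.04 ± 0.42), Ccna2 (-7.68 ± 0.55) and Mki67 (-7.97 ± 0.70), which encode survivin, cyclin A2 and the Ki-67 antigen, fell likewise, and of these 5 genes Cdk1 had the largest adjusted p, 2.9e-08 (edgeR's quasi-likelihood test with Benjamini-Hochberg adjustment). The 2 members that did not fall were Pttg1 (securin), at 33.6 ± 7.63 CPM (SD, n = 4) at P10 and 67.0 ± 16.7 at P42, and its partner Espl1 (separase), at 41.7 ± 12.5 and 46.0 ± 13.7. At P7 Top2a was at 142, 180 and 124 CPM, a range that overlapped that of P10.

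The list of DNA replication had a smaller median decrease than that of mitosis, and many of its genes kept a level of several CPM at P42. Of 38 listed genes, 22 were lower (57.9%) and 0 higher, against 3.11% and 1.88% of all genes. The median log2 fold change was -1.78. The list summed to 1039 to 1645 CPM at P10 and still to 337 to 419 CPM at P42. Rrm2, the cell cycle bound subunit of ribonucleotide reductase, was at 93.6, 65.5, 84.5 and 65.4 CPM at P10 and at 0.0717, 0.0458, 3.40 and 0 CPM at P42 (-6.38 ± 0.73), whereas Rrm1, the partner subunit, kept 17.8 CPM or more in 3 of the P42 libraries and 11.0 in the fourth (-2.21 ± 0.31). The subunits of the MCM helicase, which opens DNA at replication forks, differed among themselves. Mcm2 fell by 4.61 on the log2 scale, Mcm5 by 2.92, Mcm4 by 2.56, Mcm6 by 2.53 and Mcm3 by 1.23. Mcm3 was at 91.1, 147, 171 and 164 CPM at P10 and at 37.4, 65.7, 54.3 and 86.4 CPM at P42, groups that lay close without overlap. Pcna, the sliding clamp of the polymerases, was at 39.5 ± 4.41 CPM (SD, n = 4) at P10 and 22.8 ± 4.63 at P42 (-0.79 ± 0.13), with an adjusted p of 4.0e-05 (edgeR's quasi-likelihood test with Benjamini-Hochberg adjustment) but a change under the limit on size. Gins4 (-0.36 ± 0.20) and Pola2 (0.51 ± 0.26), parts of the helicase and of the primase complex, overlapped between the ages.

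Among 28 genes of cycle entry and its brakes, 7 were lower (25%) and 1 was higher (3.57%) at P42, against 3.11% and 1.88% of all genes. E2f1, the factor that starts the transcription of replication genes, was at 39.9, 33.2, 50.3 and 42.0 CPM at P10 and at 3.40, 0.0915, 0.0330 and 0 CPM at P42 (-5.54 ± 0.74). Ccne2, a partner of CDK2 at the start of replication, fell by 4.29. So did 2 inhibitors of the cycle, Cdkn2c (p18, -2.41 ± 0.25) and Cdkn1a (p21, -1.71 ± 0.31), each without overlap. The increase was that of another inhibitor, Cdkn1c (p57), from 7.65 ± 2.95 to 18.1 ± 6.09 CPM (SD, n = 4, 1.24 ± 0.28). Exons of an antisense gene cover 30.7% of the exonic bases of Cdkn1c, and the authors discarded reads that overlapped several genes.

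**Figure D2:**
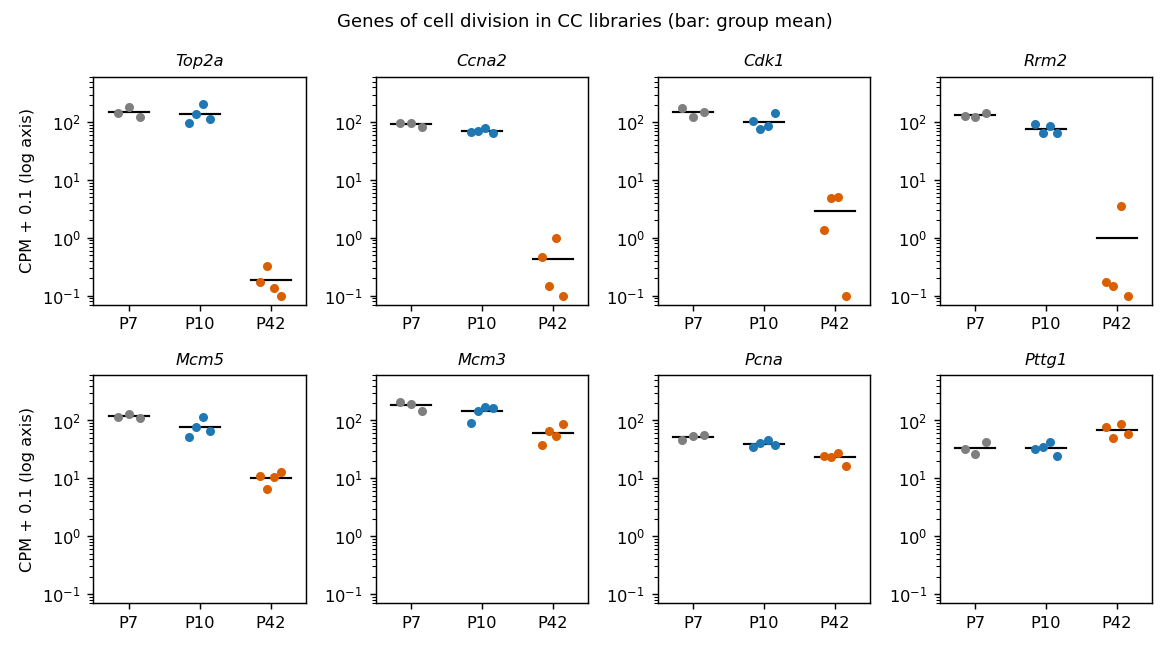
Levels of 8 genes of the division lists in the CC libraries of P7 (3), P10 (4) and P42 (4), as CPM plus 0.1 on a log axis, 1 point for each library and a bar for the group mean. The P42 points of Top2a, Ccna2 and Rrm2 lie at or near the bottom of the axis, but for replicate 3 of Rrm2 at 3.40 CPM. Those of Mcm5, Mcm3 and Pcna keep a mean of 10 CPM or more, and those of Pttg1 lie above P10.

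Many promoters of both lists held short sequences that are known to bind factors of the cell cycle. RefSeq promoters (GRCm38.p6, 250 bases before to 50 after the start) were searched on both strands for the cell cycle homology region (TTTGAA or TTCGAA), which is bound by the DREAM and MuvB complexes in late cycle genes, for the CCAAT box (CCAAT) and for E2F sites (TTTCCCGC, TTTGGCGC or TTTCGCGC). For mitosis and cytokinesis 42 promoters of 39 genes were matched, and 78.6% of them held the cell cycle homology region and 71.4% a CCAAT box, against 19.2% and 37.4% of all 32851 promoters. The CCAAT box was about as frequent in lists that did not fall as a whole, with 70.0% of the promoters of class II and 68.4% of those of class I presentation. E2F sites were held by 4.76% of the mitosis promoters, by 39.5% of the 38 promoters of 31 replication genes and by 1.84% of all. Over all genes called lower at P42, 24.6% of 560 promoters held the cell cycle homology region and 7.32% an E2F site, and over all called higher 14.7% and 2.67% of 375. A match is a string of letters and no proof of binding. The promoters below are those of the called genes with the highest mean CPM in each list that held its motif. That of Top2a (chr11:99024140-99024439, minus strand) held 4 cell cycle homology regions and 6 CCAAT boxes, in capitals on either strand, and that of Mcm3 (chr1:20820263-20820562, minus strand) held 2 E2F sites, in capitals, both after the start. Both are written along the strand of the gene.
Top2a: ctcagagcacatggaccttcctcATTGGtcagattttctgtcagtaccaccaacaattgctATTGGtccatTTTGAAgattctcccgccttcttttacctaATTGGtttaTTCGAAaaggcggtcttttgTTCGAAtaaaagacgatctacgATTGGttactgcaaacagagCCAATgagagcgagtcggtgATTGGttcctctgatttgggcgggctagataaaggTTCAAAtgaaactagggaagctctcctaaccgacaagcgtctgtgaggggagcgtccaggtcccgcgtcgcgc
Mcm3: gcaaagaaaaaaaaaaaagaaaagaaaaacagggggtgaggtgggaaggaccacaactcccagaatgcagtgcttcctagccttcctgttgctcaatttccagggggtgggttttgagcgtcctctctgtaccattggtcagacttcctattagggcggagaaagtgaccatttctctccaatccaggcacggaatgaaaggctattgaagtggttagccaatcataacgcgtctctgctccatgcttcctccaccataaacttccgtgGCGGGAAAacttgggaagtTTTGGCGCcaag

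Microglial identity. Of 34 genes of the homeostatic state, 5 were higher (14.7%) and 1 was lower (2.94%) at P42, against 1.88% and 3.11% of all genes. At the adjusted p alone 18 were higher, against 911 of all 20917 genes, and the median log2 fold change was 0.32. Cst3, which encodes the protease inhibitor cystatin C, was at 21052, 20471, 19138 and 20819 CPM at P10 and at 54852, 52349, 48090 and 48173 CPM at P42, an increase without overlap (log2 fold change 1.32 ± 0.09, SE, adjusted p = 3.2e-12, edgeR's quasi-likelihood test with Benjamini-Hochberg adjustment). Per kilobase of transcript the mean of Cst3 was 16090 CPM at P10 and 40178 CPM at P42. Selplg, the P-selectin ligand, was at 3000, 3363, 3438 and 3741 CPM at P10 and at 9540, 8826, 8802 and 7978 CPM at P42 (2.60-fold). Both genes were higher in every P42 library than in every P10 library. The fructose transporter gene Slc2a5 rose 2.32-fold and the marker Tmem119 2.01-fold, both without overlap. Crybb1, a crystallin gene known as a marker of microglia around birth, fell from 839 ± 12.9 to 362 ± 22.5 CPM (SD, n = 4, -1.21 ± 0.10). Tmem119 lay just under the limit on size without P10 replicate 1 (0.96), P10 replicate 3 (0.99) or P42 replicate 1 (0.95).

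Several receptors of microglia differed little in mean between the ages. Csf1r, the receptor for the survival factor CSF-1, was at 13886 ± 1459 CPM at P10 and 13796 ± 1282 at P42 (SD, n = 4, -0.01 ± 0.06). P2ry12, which senses ADP, was at 10386 ± 858 and 10649 ± 1539 CPM (0.04 ± 0.09), and Cx3cr1, the fractalkine receptor, at 2727 ± 149 and 2950 ± 138 CPM (0.11 ± 0.06). Fcrls, an Fc receptor-like marker of microglia, was lower without overlap at the adjusted p alone, at 7597 ± 448 and 5551 ± 915 CPM (-0.45 ± 0.08). For comparison, P2ry12 was at 4362 to 5080 CPM in the P7 libraries, below every library of both later ages. Against 1.88% and 3.11% of all genes, 5 of 40 transcription factors of myeloid cells were higher (12.5%) at P42 and 0 lower. Among these were Klf6 (1.19 ± 0.11), Irf5 (1.09 ± 0.09), Bhlhe41 (1.06 ± 0.16) and Cebpa (1.04 ± 0.13), each without overlap. Bhlhe41 represses genes of lysosomes and lipid in microglia, and Cebpa acts in the making of myeloid cells. Sall1 (0.10 ± 0.09), Spi1 (0.18) and Mef2c (0.11) differed by less than 0.2 on the log2 scale. Of 33 genes of the TGF-beta pathway 1 was higher (3.03%) and 0 lower, against 1.88% and 3.11% of all genes. Under the limit on size were Irf5 without P42 replicate 3 (0.98), Bhlhe41 without P10 replicate 4 (0.92) or P42 replicate 3 (0.97) and Cebpa without P42 replicate 4 (0.997).

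Lysosomal proteases and antigen presentation. Of 14 genes of class II presentation 5 were higher (35.7%) at P42 and 0 lower, against 1.88% and 3.11% of all genes. The median log2 fold change was 0.93. The count of 5 came down to 3 without P42 replicate 1. H2-DMa, which loads peptides onto class II molecules, was at 110, 119, 140 and 144 CPM at P10 and at 420, 444, 464 and 458 CPM at P42 (3.48-fold, log2 fold change 1.80 ± 0.11, SE, adjusted p = 4.3e-13, edgeR's quasi-likelihood test with Benjamini-Hochberg adjustment). Its lowest P42 value was more than 2-fold above its highest P10 value. Ctss, the protease that trims the invariant chain, was at 6316, 5942, 5677 and 7124 CPM at P10 and at 15025, 16872, 15109 and 12220 CPM at P42 (2.36-fold). H2-DMb1 (1.01 ± 0.14) and H2-Ob (1.07 ± 0.15), further parts of the loading machinery, rose without overlap. H2-DMb1 lost its call without P10 replicate 3 (0.89), P42 replicate 1 (0.93) or P42 replicate 2 (0.95), and H2-Ob without P42 replicate 1 (0.91).

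The class II molecules themselves stayed low. H2-Aa was at 0, 0, 0.0298 and 0 CPM at P10 and at 0, 30.1, 8.06 and 7.79 CPM at P42, and it was called although P42 replicate 1 held none. H2-Ab1, its partner chain, was at 15.6 ± 3.77 and 29.1 ± 6.88 CPM (SD, n = 4, 0.90 ± 0.24), and Cd74, the invariant chain, at 27.0 ± 2.71 and 50.6 ± 34.3 CPM (0.91 ± 0.31), neither called. Of 20 class I genes 2 were higher (10%, against 1.88% of all genes), H2-T23 (3.38-fold) and H2-K1 (1.01 ± 0.10). B2m, the light chain of class I, was at 2998 ± 261 and 2907 ± 521 CPM (SD, n = 4) at the 2 ages. H2-K1 came to 0.95 to 0.99, under the limit on size, without P10 replicate 3 or 4 or P42 replicate 2 or 3.

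Of 37 lysosomal genes 3 were higher (8.11%) and 0 lower, against 1.88% and 3.11% of all genes. The 3 were cysteine cathepsins. Besides Ctss these were Ctsh, at 567, 534, 574 and 716 CPM at P10 and at 1644, 1639, 1604 and 1449 CPM at P42 (2.65-fold), and Ctsc (2.13-fold), which activates serine proteases. The list as a whole had a median of -0.06. At the adjusted p alone 9 members were higher and 10 lower, against 911 and 1144 of all 20917 genes. Among the 10 lower members was another cathepsin, Ctsb, at 10449 ± 585 CPM at P10 and 5694 ± 266 at P42 (SD, n = 4, -0.88 ± 0.06), without overlap and under the limit on size. Ctsb had been at 23737 to 24981 CPM at P7. The call of Ctsc was lost by a small margin without P42 replicate 3 (0.998).

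Sensing and signalling. Of 33 pattern receptors and adaptors 4 were higher (12.1%) at P42 and 0 lower, against 1.88% and 3.11% of all genes. Without P10 replicate 4 or P42 replicate 3, 2 were higher. Tmem173 (STING, which answers DNA in the cytosol) was at 441, 466, 461 and 565 CPM at P10 and at 1452, 1429, 1534 and 1296 CPM at P42 (2.95-fold). Cd14, the co-receptor for bacterial lipopolysaccharide, was at 340, 330, 287 and 407 CPM at P10 and at 924, 916, 957 and 1159 CPM at P42 (2.90-fold). For both the groups were wide apart. Tlr3 (1.01 ± 0.25) and Tlr12 (1.08 ± 0.29) passed close to the limit on size. Tlr3 lost its call without P10 replicate 4 (0.71), P42 replicate 3 (0.98) or P42 replicate 4 (0.96), and Tlr12 did so without any of 6 libraries, the 2 exceptions being P10 replicate 3 and P42 replicate 4. C5ar1, the receptor for the complement fragment C5a, rose 2.62-fold from 205 ± 22.6 to 538 ± 105 CPM (SD, n = 4). The C1q chains, which tag material for uptake, were higher at the adjusted p alone, C1qa by 0.63, C1qb by 0.50 and C1qc by 0.33 on the log2 scale, each without overlap.

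Of 43 interferon-stimulated genes 2 were higher (4.65%) and 3 lower (6.98%) at P42, against 1.88% and 3.11% of all genes. The median log2 fold change was 0.46. Ddx58 (RIG-I, 1.10 ± 0.30) and Slfn8 (1.05 ± 0.22) rose, and Ifi27l2a (-1.76 ± 0.35) and Ifitm2 (-2.06 ± 0.38) fell. Rsad2 (viperin) was called lower on the strength of 1 library, at 0, 1.90, 58.4 and 5.69 CPM at P10 and at 0.412 CPM or less at P42. P10 replicate 3 was thus the high one, and the ages overlapped. Without it the log2 fold change was -4.49 with an adjusted p of 0.013 (edgeR's quasi-likelihood test with Benjamini-Hochberg adjustment), not called. Ddx58 and Slfn8 lost their calls in 5 and 4 of the 8 fits that left out 1 library, with lowest values of 0.91 for both. For Ifitm2, 40.9% of the exonic bases lie in another gene on the same strand, where reads were discarded.

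Cytokines and their receptors gave 5 increases (10.2%) and 2 decreases (4.08%) among 49 genes, against 1.88% and 3.11% of all genes. Without P10 replicate 2 or P42 replicate 4, 2 increases were left. Il1a was at 58.8 ± 15.5 CPM at P10 and 119.9 ± 9.41 at P42 (SD, n = 4, 1.03 ± 0.19), and Cxcl16, a chemokine held on the membrane, at 36.0 ± 8.43 and 86.4 ± 19.2 (1.26 ± 0.17), both without overlap. Il6 was at or below 0.682 CPM at P10 and at 10.2, 9.66, 12.3 and 9.98 CPM at P42 (5.18 ± 0.95). Il1b was at 2.82, 0.829, 0 and 0.404 CPM at P10 and at 5.45, 4.39, 11.3 and 51.2 CPM at P42 (4.16 ± 1.10), with replicate 4 far above the other P42 libraries. Its call was lost in 4 of the 8 fits that left out 1 library, with the highest adjusted p, 0.063 (edgeR's quasi-likelihood test with Benjamini-Hochberg adjustment), and a value of 2.80 without that replicate. P42 replicate 4 also held the highest sums of neutrophil, red cell and choroid plexus markers of the 8 libraries (12.4, 11.8 and 46.5 CPM), and the part of such cells in the level of Il1b was not tested. Ccl12, a ligand of CCR2, fell from 164 ± 15.8 to 64.5 ± 21.2 CPM (-1.35 ± 0.32). Cxcr2, best known as the chemokine receptor of neutrophils, was at 13.9, 23.7, 8.16 and 19.2 CPM at P10 and at 1 count or none in each P42 library. The neutrophil genes S100a8 and S100a9 had 3 counts at most in any P10 library.

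Among Fc receptors and Siglecs, 1 of 23 was higher (4.35%) and 2 lower (8.7%), against 1.88% and 3.11% of all genes. Fcgrt, the neonatal Fc receptor that recycles antibody, fell from 695 ± 59.9 to 329 ± 34.9 CPM (SD, n = 4, -1.08 ± 0.10). Lilrb4a, an inhibitory receptor, was at 1.79 CPM or less at P10 and at 6.91 to 17.9 CPM at P42 (3.86 ± 0.79), and it had been at 18.8 to 39.3 CPM at P7. Siglec1, a border macrophage marker, was at 1.29 to 15.6 CPM at P10 and at 0.0336 CPM or less at P42. Of 18 purinergic receptors and potassium channels, 2 were higher (11.1%) and 1 lower (5.56%), against 1.88% and 3.11% of all genes. Kcnj2 (1.52 ± 0.39) and Trpm2 (1.77 ± 0.46) were higher with overlapping groups, and Adora1 was called lower from 4.33 CPM or less. These 3 calls were lost in 4, 6 and 5 of the 8 fits that left out 1 library.

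Cell death. Of 89 genes of 4 cell death lists that were tested, 5 were higher (5.62%) and 3 lower (3.37%) at P42, against 1.88% and 3.11% of all genes, with a median log2 fold change of 0.23. Tnfsf13b, which encodes the B cell survival factor BAFF, was at 1.78, 0.798, 3.04 and 0 CPM at P10 and at 39.8, 16.9, 38.1 and 21.6 CPM at P42 (20.7-fold, log2 fold change 4.37 ± 0.65, SE, adjusted p = 1.1e-05, edgeR's quasi-likelihood test with Benjamini-Hochberg adjustment). Its lowest P42 library was above the highest of P10. Tnfsf12 (TWEAK) was the other ligand called (1.23 ± 0.27), and 48.3% of its exonic bases lie in an annotated read-through gene. Of 21 BCL2 family genes, Pmaip1 (NOXA, which promotes death) fell from 27.2 ± 6.41 to 7.93 ± 4.45 CPM (SD, n = 4, -1.77 ± 0.32) and Bnip3, which acts in the removal of mitochondria, from 21.8 ± 2.22 to 9.37 ± 3.62 (-1.22 ± 0.22). Bcl2a1a (2.06 ± 0.31) and Bcl2a1d (3.22 ± 0.78), which oppose death, rose, but they are near-identical copies, and reads that fit several copies had been discarded.

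None of 20 caspases and their regulators was called in edgeR's quasi-likelihood test. An unadjusted p under 0.05 was held by 9 of them, against 6721 of all 20917 genes. Limma-voom and DESeq2 each called 1 of the 20 higher, where they called 473 and 697 genes higher in all. Casp8 was at 283 ± 17.0 CPM at P10 and 341 ± 31.0 at P42 (SD, n = 4, 0.27 ± 0.08) and Casp1 at 36.6 ± 15.9 and 67.5 ± 12.2 (0.88 ± 0.18). Ftl1, the light chain of ferritin, fell from 553 ± 64.5 to 264 ± 56.5 CPM (-1.06 ± 0.13), after 1063 to 1229 CPM at P7. Of its exonic bases 34.6% lie in exons of other genes. Dfna5 (gasdermin E) rose from 2.84 ± 3.11 to 14.0 ± 4.46 CPM (2.30 ± 0.48) with overlap. Mcl1 (0.30 ± 0.08) and Bax (-0.60 ± 0.13) lay under the limit on size. Ftl1 joined them without P10 replicate 3 (-0.996) or P42 replicate 1 (-0.98).

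Lipid handling and uptake. Of 28 genes of lipid handling and efflux 7 were lower (25%) and 1 was higher (3.57%) at P42, against 3.11% and 1.88% of all genes. The median log2 fold change was -0.90. The summed level of the list went from 19496 to 22484 CPM at P10 down to 3469 to 4118 CPM at P42. Apoe, the main lipid carrier of the brain, was at 17635, 15097, 16080 and 18264 CPM at P10 and at 886, 1070, 935 and 1308 CPM at P42. It was 16.0-fold lower in a gap without overlap (log2 fold change -4.00 ± 0.23, SE, adjusted p = 1.9e-13, edgeR's quasi-likelihood test with Benjamini-Hochberg adjustment), and it made up most of the fall of the summed level. Its neighbour on chromosome 7, Apoc1, was at 46.6 ± 9.29 CPM at P10 and 1.17 ± 0.85 at P42 (SD, n = 4, 40.4-fold lower).

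Lpl, which frees fatty acids from lipoproteins, was at 487, 561, 678 and 544 CPM at P10 and at 123, 155, 113 and 217 CPM at P42 (-1.90 ± 0.18), and it had been at 1117 to 1422 CPM at P7. Scd2, a desaturase, fell by 2.06 and Plin2, a coat protein of lipid droplets, by 1.50 on the log2 scale. Abca1, which exports cholesterol from the cell, was at 568, 637, 411 and 353 CPM at P10 and at 182, 137, 198 and 158 CPM at P42 (-1.54 ± 0.18). All of these fell without overlap. Fabp5, a fatty acid binding protein, fell from 14.4 ± 6.35 to 4.14 ± 3.30 CPM (-1.79 ± 0.44), after 95.5 to 167 CPM at P7. The increase was that of Ppard, a nuclear receptor for fatty acids, at 8.63 CPM or less in every library. Of 27 genes of cholesterol synthesis and its control 3 were lower (11.1%) and 0 higher, against 3.11% and 1.88% of all genes. Among the decreases were Sqle (-3.19 ± 0.58) and Cyp51 (-1.07 ± 0.29). Fabp5, Ppard and Cyp51 lost their calls in 4, 6 and 7 of the 8 fits that left out 1 library.

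Of 32 phagocytic receptors and bridging molecules 3 were lower (9.38%) and 0 higher, against 3.11% and 1.88% of all genes. Gas6, which links dying cells to the receptors AXL and MERTK, was at 585, 612, 513 and 678 CPM at P10 and at 159, 124, 188 and 144 CPM at P42 (3.88-fold lower, -1.96 ± 0.13). The scavenger receptors Lrp1 (-1.26 ± 0.17) and Scarb1 (-1.10 ± 0.15) fell without overlap. Trem2 (0.18 ± 0.09) was level, at 1781 ± 134 and 2023 ± 145 CPM (SD, n = 4). Of 25 genes of amino acid and one-carbon synthesis 4 were lower (16%, against 3.11% of all genes). Among them were Psat1, an enzyme of serine synthesis (-1.58 ± 0.18), and Slc38a1, a glutamine transporter (-1.01 ± 0.15). The count of 4 fell to 1 without P42 replicate 2 and to 2 without P10 replicate 2 or P42 replicate 1 or 4. Of 25 glycolysis genes 2 were higher (8%, against 1.88% of all genes), Pfkfb4 (1.62 ± 0.21) and Pfkfb3 (1.16 ± 0.15), which set the speed of the pathway.

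**Figure D3:**
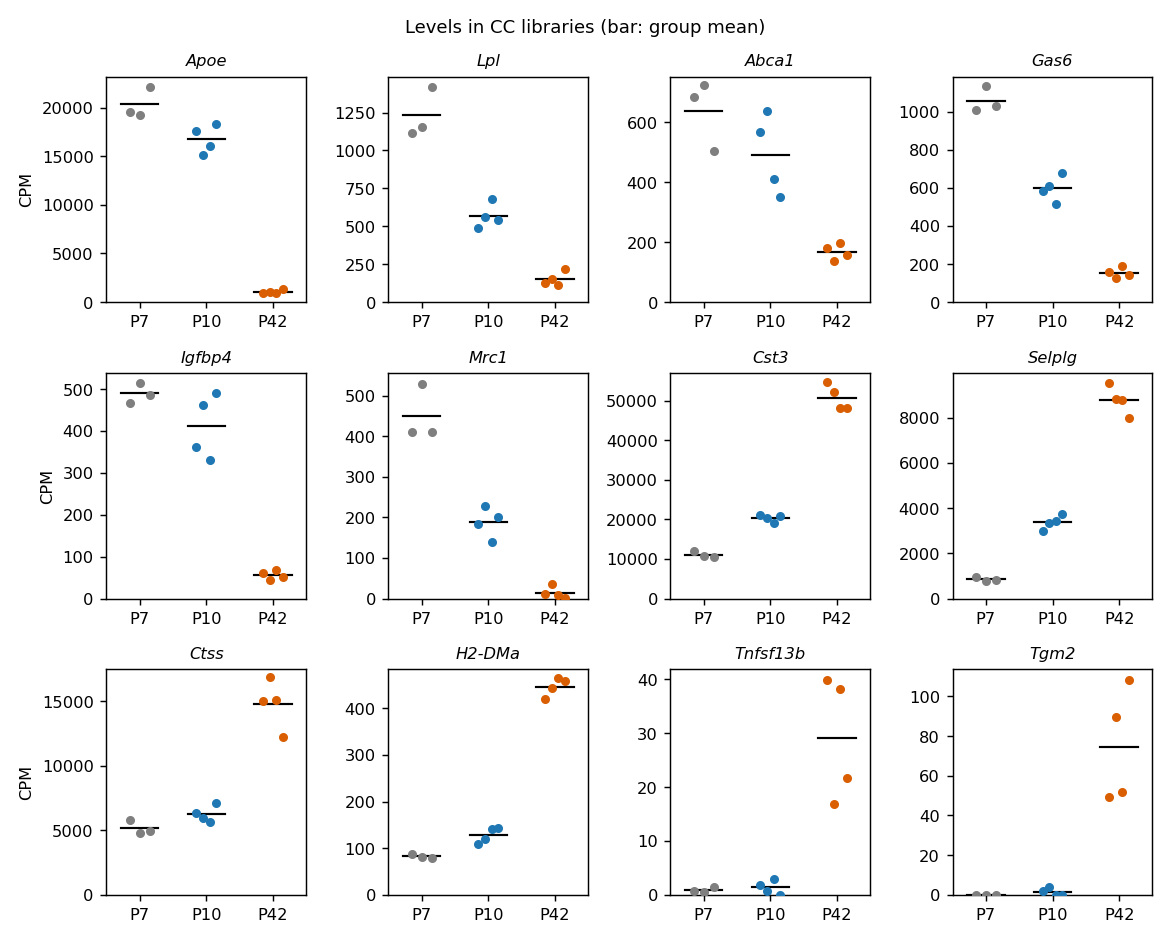
Levels of 12 genes in the CC libraries of P7 (3 points), P10 (4) and P42 (4), in CPM on linear axes that start at 0, with a bar for each group mean. Apoe, Lpl, Abca1, Gas6, Igfbp4 and Mrc1 are lower in every P42 library than in every P10 library, and Cst3, Selplg, Ctss, H2-DMa, Tnfsf13b and Tgm2 are higher.

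Growth factors and matrix. Of 36 tested genes 7 were higher (19.4%) and 3 lower (8.33%) at P42, against 1.88% and 3.11% of all genes. Lower were 5 without P10 replicate 1, 2 or 3 or P42 replicate 2 and 6 without P42 replicate 4. Igfbp4, which binds insulin-like growth factors, was at 362, 463, 330 and 490 CPM at P10 and at 61.0, 43.0, 67.1 and 50.9 CPM at P42 (7.41-fold lower, log2 fold change -2.89 ± 0.15, SE, adjusted p = 3.5e-14, edgeR's quasi-likelihood test with Benjamini-Hochberg adjustment). Igf1, a growth factor for oligodendrocytes, was at 66.2, 62.1, 96.4 and 86.9 CPM at P10 and at 7.34, 20.2, 18.9 and 18.7 CPM at P42 (-2.26 ± 0.44), after 310 to 405 CPM at P7. Both pairs of groups were apart. Nrp2, a co-receptor for semaphorins and VEGF, fell by 1.37.

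The increases included enzymes that act on matrix. Tgm2, which cross-links proteins, was at 1.99, 3.96, 0 and 0.173 CPM at P10 and at 49.1, 89.5, 51.8 and 108 CPM at P42 (48.8-fold, 5.61 ± 0.90), and it had 0 CPM in all 3 P7 libraries. Mmp14, a protease on the membrane, was at 22.4, 10.9, 9.80 and 14.6 CPM at P10 and at 75.0, 55.8, 75.0 and 92.6 CPM at P42 (5.17-fold). Col27a1, a fibrillar collagen, rose by 2.29 ± 0.28 and Pdgfb, a growth factor for pericytes, by 1.19 ± 0.13 on the log2 scale, without overlap. Mmp12 was at 0 in all P10 libraries and at 0, 53.5, 8.20 and 21.9 CPM at P42, so that P42 replicate 1 overlapped P10.

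The study named 12 priming genes and 5 phagocytosis genes. The paper calls the priming genes known ones, and it shows the phagocytosis genes as regulated in these libraries. Both lists were reported from these same libraries, so neither is independent evidence of a direction. Of the priming genes 4 were lower (33.3%) and 0 higher at P42, against 3.11% and 1.88% of all genes, with a median of -0.54. Mrc1, the mannose receptor CD206, was at 185, 229, 138 and 202 CPM at P10 and at 10.2, 35.7, 9.85 and 0.302 CPM at P42 (-3.76 ± 0.52, adjusted p = 3.6e-06, edgeR's quasi-likelihood test with Benjamini-Hochberg adjustment), without overlap, after 411 to 530 CPM at P7. Gas7 fell by 3.87 on the log2 scale. Gpnmb, an injury marker of macrophages, was at 0.0297, 1.50, 11.3 and 6.96 CPM at P10 and at 0.458 CPM or less at P42, and it had been at 775 to 898 CPM at P7. Its call was lost in 6 of the 8 fits that left out 1 library, with an adjusted p of 0.031 without P10 replicate 3 (edgeR's quasi-likelihood test with Benjamini-Hochberg adjustment). Spp1 (osteopontin) was at 64.7, 53.9, 501 and 141 CPM at P10 and at 12.4, 128, 15.6 and 14.9 CPM at P42 (-2.16 ± 0.63, adjusted p = 0.016, edgeR's quasi-likelihood test with Benjamini-Hochberg adjustment), with overlap and not called. Clec7a (0.36 ± 0.24) and Axl (-1.12 ± 0.32) overlapped too, and Lgals3 (galectin-3) was at 6.88 ± 6.28 and 31.7 ± 17.9 CPM (SD, n = 4, 2.20 ± 0.65), above the limit on adjusted p. Of the phagocytosis genes 2 were lower, Abca1 and Scarb1, and 0 higher, with a median of -0.10. Most of the level of the priming list had gone before P10, since it summed to 9146 to 14408 CPM at P7, to 539 to 1074 CPM at P10 and to 203 to 471 CPM at P42.

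**Figure D4:**
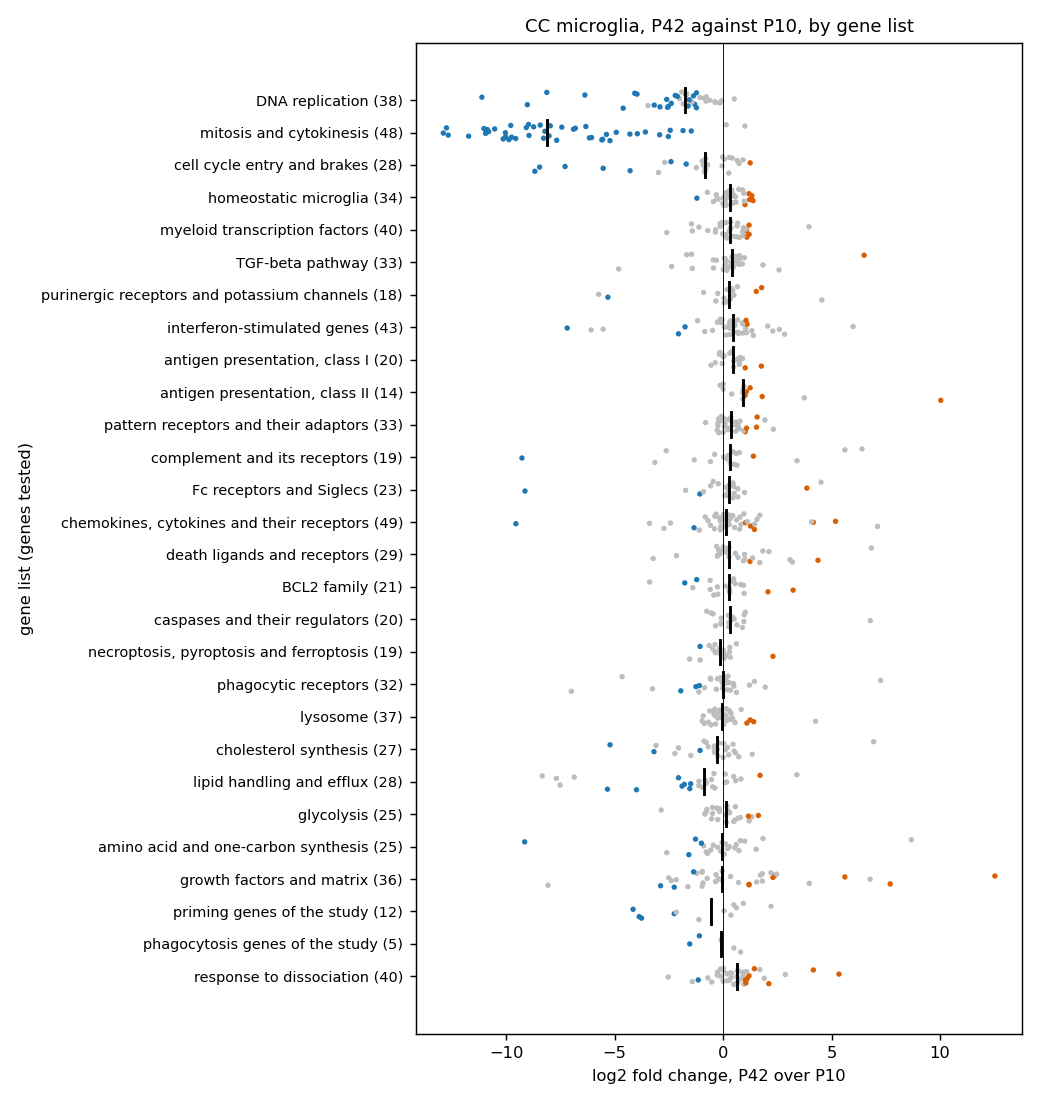
Log2 fold change between P42 and P10 in the CC for each tested gene of 28 lists, 1 row for each list with the number tested, and a short black bar at the median. Orange points are called higher, blue points lower and grey points not called, and the mitosis row stands at the far left with a median of -8.13 while most other rows centre near 0.

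Outside the lists, the genes named here were taken by size of change or by level among those called without overlap. Upk1b, a tetraspanin best known from the bladder, was at 13.7, 25.0, 14.4 and 18.0 CPM at P10 and at 209, 133, 140 and 181 CPM at P42 (9.33-fold, log2 fold change 3.22 ± 0.35, SE, adjusted p = 4.3e-08, edgeR's quasi-likelihood test with Benjamini-Hochberg adjustment). Il7r, the receptor for interleukin 7, was at 6.61, 5.40, 11.6 and 5.86 CPM at P10 and at 64.3, 88.9, 65.7 and 33.0 CPM at P42 (8.54-fold). Srgn, the core of granule proteoglycans, rose from 31.1 ± 5.77 to 240.5 ± 35.4 CPM (SD, n = 4, 7.74-fold) and Lrrc3 from 33.6 ± 7.91 to 249.97 ± 29.7 CPM (7.44-fold). Larger still were Jam3, a junction protein (4.35 ± 0.70), Csmd3 (4.16 ± 0.42), the sorting receptor Sorl1 (3.86 ± 0.71) and Fam49a (3.66 ± 0.70). By level, Rgs2, which dampens signals of G protein coupled receptors, rose from 613 ± 65.3 to 1452 ± 118 CPM, Hpgd, which breaks down prostaglandins, from 418 ± 55.1 to 1120 ± 88.3 CPM and Gpr183, the receptor for oxysterols that guide migration, from 209 ± 32.9 to 619 ± 33.3 CPM. Xbp1, the factor of the unfolded protein response, rose by 1.07 ± 0.09.

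Of the 12 largest decreases outside the lists, 10 were genes that are known for roles in the cell cycle, such as Melk, Fam64a, Cdca3 and Nek2. The other 2 were Gpx3 and Hpse. Gpx3, a secreted glutathione peroxidase, was at 185, 172, 128 and 163 CPM at P10 and at 0, 3.94, 2.41 and 0.0336 CPM at P42 (-6.73 ± 0.59), after 592 to 646 CPM at P7. Hpse, the enzyme that cuts heparan sulphate, was at 29.6, 21.0, 61.1 and 10.7 CPM at P10 and at 0.706 CPM or less at P42 (-6.95 ± 1.12), after 192 to 238 CPM at P7. Among the genes of high level, Lyz2 (lysozyme) fell from 885 ± 54.7 to 247 ± 27.6 CPM (SD, n = 4, -1.84 ± 0.13), Adgre1, which encodes F4/80, from 1648 ± 91.9 to 751 ± 127 CPM (-1.13 ± 0.08), and the actin severing Cfl1 and the tubulin Tubb5 by 1.07 each.

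Markers of other cells moved with some of these groups. The 12 border macrophage markers summed to 350 to 453 CPM at P10 and 153 to 207 CPM at P42. Of these markers 3 were lower (25%, against 3.11% of all genes), among them Mrc1 and Siglec1, and 0 higher. Stab1, the most abundant of them beside Mrc1, was at 164 ± 24.5 and 161 ± 41.7 CPM (SD, n = 4), and the defining genes Lyve1 and Cd209f were at 8.35 CPM or less at P10 and at 0 in all P42 libraries. The part of such cells in the fall of Mrc1, Siglec1 and Gpx3 was not tested. The sum of the 10 astrocyte markers was 113 to 138 CPM at P10 and 185 to 234 CPM at P42, almost all of it from Slc1a3, while the defining genes Gfap and Aqp4 had 0 counts in the P42 libraries. Oligodendrocyte markers summed to 161 to 290 and 205 to 248 CPM, neuronal ones to at most 11.5 CPM in P42 replicate 2. In P42 replicate 4 the neutrophil list summed to 12.4 CPM against 3.07 CPM or less in the others, the red cell list to 11.8 against 3.96 CPM or less, and the choroid plexus list, from Ttr, to 46.5 against 10.1 CPM or less. Their part in the results was not tested. Of 40 genes that respond to the dissociation of tissue, 8 were higher (20%) and 1 lower (2.5%) at P42, against 1.88% and 3.11% of all genes. Higher were 2 without P42 replicate 4, 3 without P10 replicate 3 and 4 without P10 replicate 4 or P42 replicate 3. The median was 0.63, with sums of 1817 to 2000 CPM at P10 and 2630 to 3439 CPM at P42. Klf6, Nfkbia, Junb, Ier5, Il1b and Ccl4 are members of that list, and Fos (0.49 ± 0.38) and Egr1 (-0.53 ± 0.36) were not called, so the part of dissociation in the increases of these members was not tested.

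CC against Cx and Cb. Whether the CC changed differently from the other regions was asked of each gene by the difference of its changes between P10 and P42. Against the Cx 46 genes differed (0.22% of those tested, 23 with the larger value in the CC), and against the Cb 26 genes (0.124%, 17 with the larger value in the CC). In 24 of the 46 and 16 of the 26 the changes had opposite signs, but in only 1 gene of each comparison were both of these changes called. No gene of the replication list was among the 46 or the 26. Of the mitosis list, Cdc25b differed in both comparisons and Racgap1 against the Cb. The median change of the mitosis list stood at -8.13 for the CC, -7.02 for the Cx and -5.78 for the Cb, with 46, 45 and 45 genes lower.

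Against the Cx, among genes of at least 10 CPM with the smaller value in the CC, Hpse, Pde2a, Fam26f and Atf3 differed most. The sterol exporters Abca1 and Abcg1 came next. Pde2a was at 22.5 to 46.9 CPM at P10 and 13.0 to 30.5 at P42 in the CC. In the Cx it rose from 0.836 to 3.70 up to 13.0 to 34.1 CPM, a difference of -4.42 ± 0.80 (SE). Abca1 fell by 1.54 in the CC, while in the Cx it was at 182 to 303 CPM at P10 and 261 to 315 at P42 (0.33), a difference of -1.87 ± 0.25 (SE, adjusted p = 5.7e-05, edgeR's quasi-likelihood test with Benjamini-Hochberg adjustment). Abcg1, its partner in efflux, was at 216 to 254 CPM at P10 and 169 to 193 at P42 in the CC (-0.38), and in the Cx it rose from 77.8 to 84.7 up to 185 to 226 CPM (1.34), a difference of -1.72 ± 0.16. At P10 both genes were thus higher in every CC library than in every Cx library, and at P42 Abca1 was lower in every CC library while Abcg1 overlapped. The factor Klf2 was at 11.7 to 20.0 CPM at P10 and 17.3 to 40.1 at P42 in the CC, but in the Cx it fell from 18.2 to 23.4 down to 1.45 to 2.55 CPM, a difference of 4.01 ± 0.37. Emp3 (2.39 ± 0.21) and Ifi30 (1.84 ± 0.16), a reductase of antigen processing, differed in the same way, level or higher in the CC and lower in the Cx. Atf3, a stress factor and, with Klf2, a gene of the dissociation list, was level in the CC (0.18) and rose in the Cx from 4.94 to 7.12 up to 32.5 to 38.6 CPM (-2.36 ± 0.36). H2-DMa (1.09 ± 0.15), Gpr183 (1.25 ± 0.11) and Lrrc3 (1.16 ± 0.23) rose in the CC by more than in the Cx, each from a lower level at P10. Hpse (-6.71 ± 1.38) fell in the CC from levels that the Cx did not have, 1.67 to 3.89 CPM at P10. The differences of Hpse and Lrrc3 each missed the limit on adjusted p in 6 of the 8 fits that left out 1 CC library, with adjusted p-values up to 0.021 and 0.019 (edgeR's quasi-likelihood test with Benjamini-Hochberg adjustment). Apoe fell in all regions (-4.00, -2.86 and -3.43 in the CC, Cx and Cb), and the differences were not called (adjusted p = 0.042 and 0.39, edgeR's quasi-likelihood test with Benjamini-Hochberg adjustment).

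Against the Cb, Upk1b had the largest difference among genes of at least 10 CPM with the larger value in the CC. It was at 34.0 to 60.4 CPM at P10 and 21.7 to 50.4 at P42 in the Cb (-0.40), a difference of 3.62 ± 0.47 (adjusted p = 0.00032, edgeR's quasi-likelihood test with Benjamini-Hochberg adjustment), while in the Cx it rose by 3.15. Il7r (2.55 ± 0.48), Ptprm (2.28 ± 0.40) and Khdrbs3 (2.07 ± 0.29) likewise rose in the CC and were not called in the Cb. At P10 their CC and Cb means were 7.37 and 31.1, 8.35 and 36.9, and 30.1 and 29.5 CPM. Il7r and Ptprm thus rose in the CC from a lower level. At P42 the means were 63.0 and 45.4, 40.9 and 37.2, and 100 and 23.4 CPM. In the Cx their changes were 1.18, 1.24 and 0.68. The difference of Il7r missed the limit in 5 of the 8 fits that left out 1 CC library. Slc2a5 rose in the CC and was level in the Cb, with a difference of 1.12 ± 0.16. Hmgcs1, an enzyme of cholesterol synthesis, differed from both regions. It was at 28.5, 38.4, 37.1 and 22.3 CPM at P10 and at 42.6, 57.7, 61.3 and 46.7 CPM at P42 in the CC (0.72 ± 0.18), and fell in the Cb by 1.22, a difference of 1.94 ± 0.26 against the Cb and of 1.48 ± 0.26 against the Cx. Ezh2, which places repressive histone marks, fell by 1.16 in the CC and further in the Cx (-2.96) and Cb (-2.71), with differences of 1.80 ± 0.29 and 1.55 ± 0.29. The difference from the Cb missed the limit without P10 replicate 1 or 3, with an adjusted p of up to 0.0138 (edgeR's quasi-likelihood test with Benjamini-Hochberg adjustment). Pecam1 (2.61 ± 0.44) fell in the Cb by 2.80 and differed by -0.19 in the CC. It is one of 7 tested endothelial markers, of which 2 were lower in the Cb, with a median of -2.02 there and -0.02 in the CC, and the part of such cells in this difference was not tested.

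**Figure D5:**
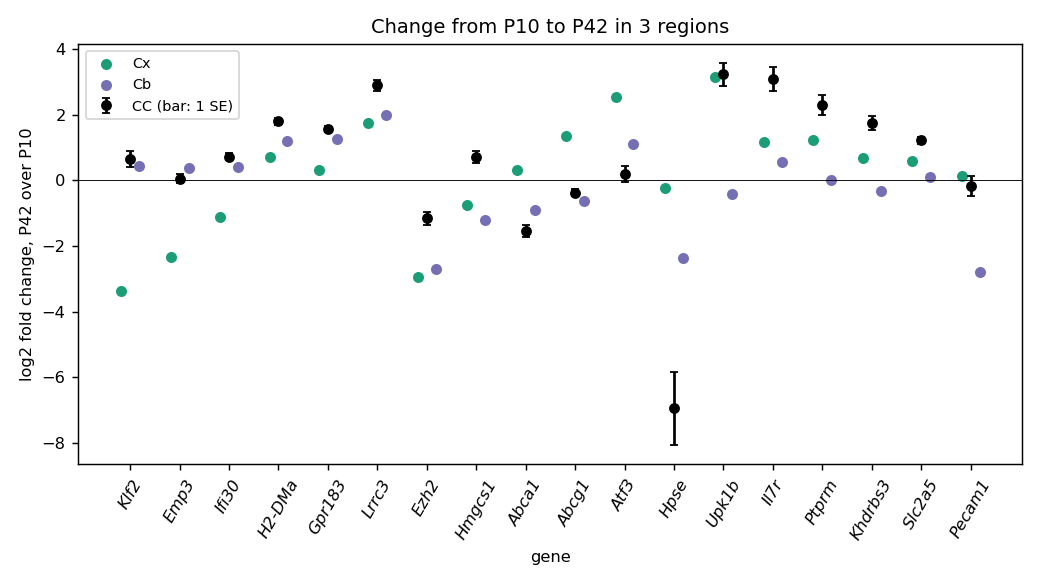
Log2 fold change between P42 and P10 in the CC (black), Cx (green) and Cb (purple) for the named genes whose change differed between the CC and another region, with bars of 1 SE for the CC. The points of Klf2, Emp3 and Ifi30 are low in the Cx only, those of Upk1b, Il7r and Khdrbs3 are highest in the CC or in the CC and Cx, and those of Ezh2 are lower in both other regions.

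Male and female libraries. The change in the CC differed by sex in 30 genes (0.143% of those tested), 21 with the larger value in males. There were 2 libraries of each sex at each age, and only 9 of these genes had a mean of at least 10 CPM. In only 3 did the P10 libraries not overlap those of P42, and overlap between the sexes was not counted. The count of 30 ranged from 17 to 335 when 1 library at a time was left out, with 335 without CC P42 replicate 3. The largest differences at 10 CPM or more among genes with the larger value in males were those of Map10 (8.03 ± 1.01) and Sorl1 (5.53 ± 0.84). Sorl1 was at 3.65 and 7.21 CPM in the female and 0.0894 and 0.173 CPM in the male libraries of P10, and at 43.7 and 31.3 CPM and 50.8 and 35.5 CPM at P42. Its sexes were thus apart at P10 and overlapped at P42, and its call was lost without P10 replicate 2 or 3 or P42 replicate 2. Of the listed genes, Ms4a7 of the border macrophage markers alone was called in this test, and its call was lost in 5 of the 8 fits that left out 1 library.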

How the data were processed

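RNA was taken from sorted microglia of 33 samples of 3 regions at P7, P10 and P42, and libraries were made from 1 ng of RNA by template switching (SMARTer Ultra Low v4) and tagmentation (Nextera XT). The authors demultiplexed reads with CASAVA 1.8.2, aligned them to GRCm38 with STAR 2.5.2b and deposited whole counts per gene from featureCounts 1.6.2, and dropped reads with more than 1 mapping place or more than 1 overlapping gene. The PCR steps carried no molecular identifiers, so a floor of 3 counts (0.0866 to 0.137 CPM in the 8 CC libraries) covers counting error only.

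Of 48587 genes, 17212 had no reads and the 10458 with the lowest summed counts, up to 26 over all libraries, were left out, as were 92 spike-in sequences (7 to 23 counts in a CC library). The other 20917 were fitted in edgeR 4.0.16 (R 4.3.3) with TMM factors and the robust quasi-likelihood test over 9 groups of region and age, since all groups then share an estimate of the spread. Genes were called at a Benjamini-Hochberg adjusted p no higher than 0.01 where the log2 fold change also had a size of at least 1. Fitted values of genes without counts at an age depend on the prior count of the fit, which was left at the default of edgeR. Folds against such groups are set against the floor. A prior count of 2 was used only for the log2 CPM of the correlations. Differences between regions or sexes are contrasts of the changes. Alternatives were limma-voom (limma 3.58.1), DESeq2 1.42.0, RLE factors, other filters, a covariate for sex, a replicate block, a fit of only the libraries compared and leaving out each CC library. P10 replicate 3 and P42 replicate 4, the libraries with the lowest correlations in their groups, were left out together as an alternative chosen after seeing the data.

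The genes named were, for each list, up to 6 called genes by size of change that did not overlap and had a mean of at least 10 CPM, and up to 4 not called by level. Every listed gene could be named where its list was counted. Outside the lists they were the 12 largest changes and the 8 highest levels in each direction, for each difference up to 6 genes in each direction, and genes named in the study. Genes such as Rrm1, Espl1 and Pola2 come from the counted lists. The members, lists and rules were chosen with earlier results of these data known. Some listed genes count in their lists but are not reported here by name. The scripts were tested on simulated data.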

Additional observations from a re-analysis of the deposited data

Results flagged for a closer look

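A library that stood apart from the other 3 of its group was sought among 354 groups of 4 values of the genes named. Of these groups 34 (9.60%) held one, 10 at P10 and 24 at P42. The limit flags about 1 in 20 where values spread normally. It flags every group with counts in 1 library only, such as H2-Aa at P10 and Siglec1 at P42, so the 9.60% cannot be read as an excess. At P10 the high libraries were replicate 2 for Mef2c (854 CPM) and Adgre1 (1785 CPM), replicate 3 for H2-Aa (0.0298 CPM), Rsad2 (58.4 CPM), Bnip3 (25.1 CPM) and Casp1 (60.1 CPM), and replicate 4 for C1qa (6406 CPM), S100a9 (0.0866 CPM) and Melk (36.0 CPM). The low one was replicate 4 for Ifi30 (98.9 CPM).

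At P42 many of the outlying values were those of division genes at a low level. These were replicate 1 for E2f1 (3.40 CPM), replicate 2 for Mki67 (0.915 CPM), Melk (0.0458 CPM) and Cdca3 (0.0915 CPM), replicate 3 for Rrm2 (3.40 CPM), Mcm2 (11.0 CPM) and Nek2 (0.0991 CPM), and replicate 4 for Cdc25b (0.0336 CPM) and Racgap1 (0.470 CPM). Other high values were those of Rsad2 (0.412 CPM), Adora1 (0.137 CPM) and Spp1 (128 CPM) in replicate 2, of S100a8 (1.98 CPM), S100a9 (1.06 CPM), Sqle (3.27 CPM) and Slc38a1 (118 CPM) in replicate 3, and of Il1b (51.2 CPM) and Siglec1 (0.0336 CPM) in replicate 4. Low values were those of H2-T23 (201 CPM) and Igf1 (7.34 CPM) in replicate 1, of Gas7 (0.0458 CPM) in replicate 2 and of Dfna5 (7.34 CPM), Emp3 (35.5 CPM) and Ezh2 (7.54 CPM) in replicate 3.

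The change from P10 to P42 differed between the CC and the Cx on the log2 scale for Klf2 (4.01), Emp3 (2.39), Ifi30 (1.84), Ezh2 (1.80), Hmgcs1 (1.48), Gpr183 (1.25), Lrrc3 (1.16), H2-DMa (1.09), Bnip3 (-1.57), Abcg1 (-1.72), Abca1 (-1.87), Atf3 (-2.36), Hpse (-6.71) and Cdc25b (-7.59). That of Bnip3 missed the limit without P10 replicate 3 or P42 replicate 1, with adjusted p-values of 0.0149 and 0.0140 (edgeR's quasi-likelihood test with Benjamini-Hochberg adjustment). Between the CC and the Cb it differed for Upk1b (3.62), Pecam1 (2.61), Il7r (2.55), Ptprm (2.28), Khdrbs3 (2.07), Hmgcs1 (1.94), Ezh2 (1.55), Slc2a5 (1.12), Racgap1 (-4.63) and Cdc25b (-8.67, like -7.59 a fitted value of a gene at 0.0336 CPM or less in every CC P42 library). Between males and females it differed for Map10 (8.03), Sorl1 (5.53) and Ms4a7 (19.6, a fitted value of a gene with libraries at 0, lost in 5 of the 8 fits that left out 1 library). Spike-in sequences were not used in any comparison and reached 23 counts in a CC library.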

How the results depend on the processing

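The call count of 1043 for the CC lay between 966 and 1268 under all alternatives but 2, with 1727 in DESeq2 and 290 when only the 8 CC libraries were fitted, and between 984 and 1076 when 1 library was left out. For the CC against the Cx, 46 became 296 in DESeq2 and 21 when only the libraries compared were fitted, with 36 to 63 when 1 library was left out (36 without CC P10 replicate 3). For the CC against the Cb, 26 became 42 in limma-voom, 269 in DESeq2, 3 with only the libraries compared and 43 without both CC P10 replicate 3 and P42 replicate 4, with 21 to 39 when 1 library was left out. The sex difference was the least stable, with 77 genes in limma-voom, 400 in DESeq2, 506 without a filter, 118 without that pair and 17 to 335 when 1 library was left out. With only the CC libraries 0 genes passed in edgeR's quasi-likelihood test, and 880 had an unadjusted p under 0.05. No value that was called in either fit reversed its direction. Values that were not called changed sign in places, such as the change of Atf3 in the CC (0.18, and -0.11 without P42 replicate 2), that of B2m (0.05 without P42 replicate 4) and the median of the amino acid list (0.09 without P10 replicate 1). The cause of these shifts was not tested. Fits of only the libraries compared have fewer samples to set the spread. The CC libraries were also less alike within their groups than those of the regions with which they share an estimate of the spread. The mean r of a library with the others of its group was 0.842 to 0.889 in CC P10 and 0.819 to 0.858 in CC P42. In the Cx and Cb at these ages it was 0.940 to 0.979.

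With a replicate block the CC gave 995 calls, the differences 37 and 22, and 123 of 129 named calls were kept. Same-numbered libraries of the CC at P10 and P42 did not deviate together (correlations of -0.0405 to 0.0268 over 10086 genes). Between regions of the same age such correlations were small too. They were -0.0161 to 0.0667 for the CC with the Cx and -0.00551 to 0.0544 for the CC with the Cb. Most CC libraries nevertheless correlated best with their own number, 5 of 8 in the Cx and 6 of 8 in the Cb. A shared origin of same-numbered libraries of an age was not tested, and the main fit did not take the numbers as pairs. Of the 129 named calls 97 were kept in every fit that left out 1 library, and 32 were lost in at least 1. Losses not given above were those of Il1a, Slc38a1, Xbp1, Slc1a3, Nfkbia, Junb and Ier5, which came just under a size of 1, and of Ccl12, Bcl2a1d and Ccl4, whose adjusted p rose to at most 0.033 (edgeR's quasi-likelihood test). With only the CC libraries 78 of the 129 were kept. Of 10 list counts of at least 5 calls, 5 stayed near their main value in that fit. A count of 0 in a library allows a level of up to 0.137 CPM.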
